A study of Mus musculus with 2 samples.

Results

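The 10 genes described here encode Fc receptors, the signalling adaptors they share, and other activating or inhibitory receptors of myeloid cells. They were taken by name as Fcgr1, Fcgr2b, Fcgr3, Fcgr4, Fcer1g, Tyrobp, Trem2, Pirb, Sirpa and Siglec1. They are 10 of the 55536 annotated genes in the gene tables, and each name matched 1 gene. The data are ribosomal RNA-depleted total RNA sequencing of bone marrow-derived macrophages (BMDM) of mouse strain C57BL/6J, stimulated for 120 min with 100 ng/ml Lipid A, the lipid anchor of bacterial lipopolysaccharide and the ligand of Tlr4. The RNA was nucleoplasmic, that is, from the soluble content of nuclei, though 1 label field says nucleus. The series is 1 group of 2 libraries, biological replicates 1 and 2, with separate biosample entries that point to a single donor entry. Sex and age were not collected, and the labels give no treatment or genotype beyond these. No untreated cells, other times or other fractions were analysed here, so the values are levels and not responses to Lipid A, and no test between groups could be made.

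Fc gamma receptors bind the constant part of IgG. Fcgr1, Fcgr3 and Fcgr4 are activating and signal through the gamma chain encoded by Fcer1g, whose tail carries an immunoreceptor tyrosine-based activation motif (ITAM). Fcgr2b is the inhibitory Fc gamma receptor, with an inhibitory motif (ITIM) in its own tail. Tyrobp, also called DAP12, is the ITAM adaptor of Trem2, a receptor for lipids and lipoproteins. Pirb and Sirpa carry ITIMs and recruit phosphatases; Pirb binds MHC class I, and Sirpa binds Cd47 on other cells. Siglec1 is a sialic acid-binding receptor of macrophages.

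Estimated counts in the gene tables summed to 14374739 (replicate 1) and 16372797 (replicate 2), of which the 10 genes took 0.267% (95% Wilson interval 0.265% to 0.270%) and 0.332% (0.329% to 0.335%). Intervals cover counting error only. All 10 macrophage marker genes checked reached 1 TPM (an estimate of abundance per effective length, scaled to one total in each library) in both libraries, Lyz2 being the highest at 403 and 1316 TPM. None of 10 neutrophil, 8 B cell, 8 NK cell, 8 mast cell and basophil or 6 dendritic cell markers did so in the gene tables. The highest of these were Ltf at 0.47 and 2.55, Ighm at 0.96 and 0.77, Il2rb at 0.02 and 0, Kit at 2.07 and 0.64, and Zbtb46 at 1.80 and 0.84 TPM. Of 6 T cell markers Lck passed, at 4.74 and 5.24 TPM, and of 6 osteoclast markers Acp5, at 16.5 and 11.99 TPM. The libraries stood apart in 3 respects. Their RNA input was 1 µg in replicate 1 and 500 ng in replicate 2. Mitochondrial genes took 0.424% and 8.70% of counts, and 8 stromal markers summed to 83.9 and 0.31 TPM, with Col1a1 at 22.9 and 0.07 TPM. Levels below are therefore given for each library, and with n = 2 the SD rests on a single difference.

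All 10 genes reached 1 TPM in both libraries, as did 40.4% of 22015 protein-coding genes. They are described in the order Fc gamma receptors, adaptors, the adaptor-coupled Trem2, and the inhibitory and sialic acid receptors.

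Among the Fc gamma receptors, RNA assigned to the inhibitory Fcgr2b was the most abundant. Fcgr2b (chr1:170958617-170976547, minus strand, mm10) stood at 412 TPM in replicate 1 and 335 TPM in replicate 2 (373 ± 54.1, SD, n = 2), from 7941 and 11405 estimated counts. Fcgr3 (chr1:171051174-171064935, minus strand) stood at 53.8 and 66.9 TPM (60.4 ± 9.28), from 835 and 1584 counts. Fcgr2b was thus 7.65-fold and 5.01-fold above Fcgr3 within the libraries. Fcgr1, the high-affinity receptor (chr3:96282909-96293969, minus strand), stood at 21.1 and 23.9 TPM (22.5 ± 1.94), from 706 and 1149 counts. Fcgr4 (chr1:171018920-171029761, plus strand), which lies between Fcgr2b and Fcgr3, stood at 15.9 and 21.2 TPM (18.5 ± 3.71), from 233 and 467 counts. The values of Fcgr2b did not overlap those of the activating receptors in either library, and Fcgr1 lay above Fcgr4 in both. Fcgr2b made up 81.9% and 75.0% of the summed TPM of the 4 receptors (78.4% ± 4.92, SD, n = 2). Counting transcripts annotated as protein-coding alone, its share was 56.7% and 56.5%, with 17.0% and 22.5% for Fcgr3, 15.0% and 10.8% for Fcgr1, and 11.3% and 10.1% for Fcgr4. Its mean on that scale, 56.6% ± 0.161 (SD, n = 2), was lower than on whole-gene TPM by more than either SD.

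The ITAM adaptor Fcer1g was expressed well above the receptors that use it. Fcer1g (chr1:171229572-171234365, minus strand) stood at 247 TPM in replicate 1 and 310.05 TPM in replicate 2 (278 ± 44.7, SD, n = 2), from 1404 and 2913 counts. That is 4.59-fold and 4.63-fold the level of Fcgr3, 11.7-fold and 13.0-fold that of Fcgr1, and 15.5-fold and 14.7-fold that of Fcgr4. Tyrobp (chr7:30413760-30417585, plus strand) stood at 52.7 and 72.2 TPM (62.4 ± 13.8), from 282 and 583 counts. Fcer1g lay above Tyrobp 4.68-fold and 4.30-fold in the gene tables, and 9.80-fold and 5.72-fold in the read-based tables. These ratios compare levels per length within a library, so they do not depend on scaling between libraries.

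Trem2 (chr17:48346401-48354147, plus strand) showed the widest gap between the libraries as a ratio of TPM, though not as a difference in TPM. It stood at 45.3 TPM in replicate 1 and 123 TPM in replicate 2 (84.0 ± 54.7, SD, n = 2), from 674 and 2422 counts. It lay below its adaptor Tyrobp in replicate 1, at 0.860-fold, and above it in replicate 2, at 1.70-fold. No order of Trem2 and Tyrobp can be given from these libraries.

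By whole-gene TPM, Pirb and Sirpa were among the most abundant of the 10 genes and Siglec1 the least. Pirb (chr7:3711409-3720391, minus strand) stood at 374 TPM in replicate 1 and 255 TPM in replicate 2 (315 ± 83.9, SD, n = 2), from 15338 and 15528 counts. Sirpa (chr2:129592835-129632228, plus strand) stood at 275 and 261 TPM (268 ± 10.1), from 10003 and 16728 counts. Siglec1 (chr2:131069220-131086765, minus strand) stood at 12.03 and 12.3 TPM (12.1 ± 0.163), from 1011 and 1568 counts. Sirpa exceeded Siglec1 22.9-fold and 21.3-fold. Pirb has close relatives, and 34.0% of the 50-base windows of its transcripts also occur in transcripts of other genes, chiefly Gm14548, Pira2 and Lilra6. The share is 9.58% for Fcgr3, all with Fcgr2b, 6.95% for Fcgr2b and 1.33% for Siglec1, while the other 6 genes had no shared window. Reads that lie wholly in shared sequence cannot be placed by sequence alone, so the level of Pirb is uncertain by an amount that was not measured. The shares describe annotated transcripts and take no account of read length. The posterior SD that the authors deposited for its count is 8.80 and 11.2 reads, which covers the assignment model only.

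**Figure D1:**
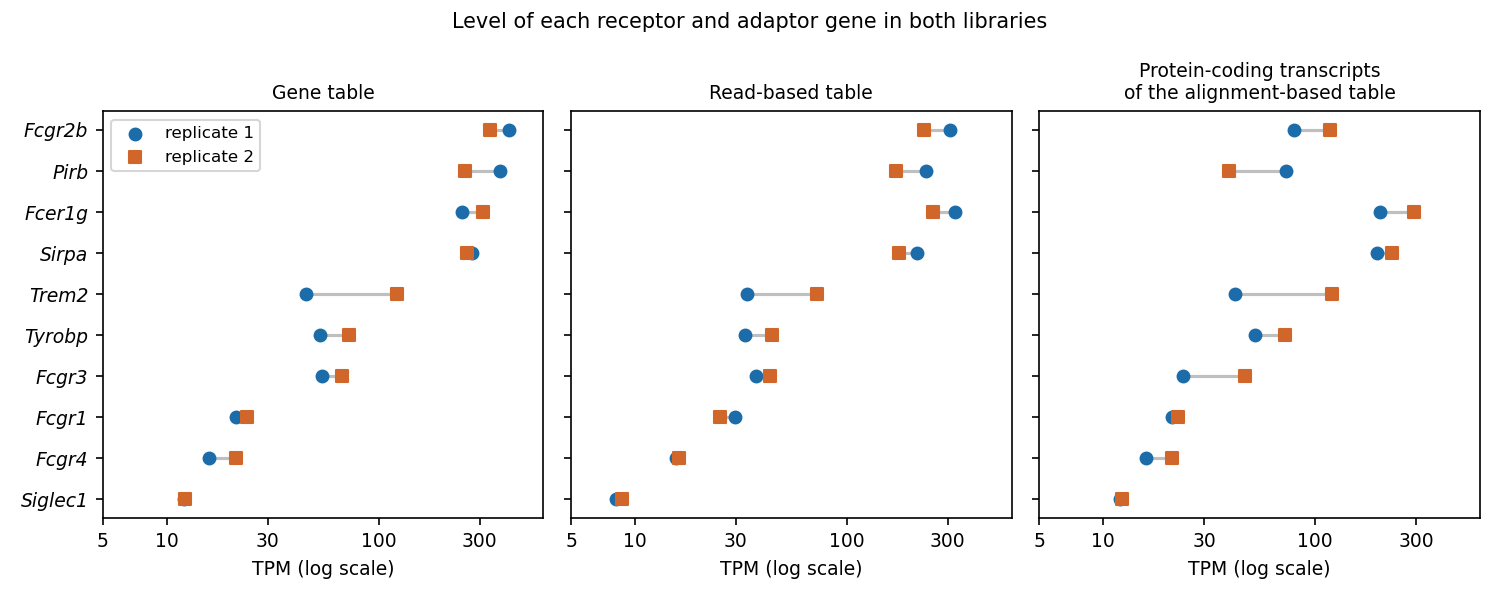
TPM (log axis) of each gene in replicate 1 (circles) and replicate 2 (squares), from the gene tables, the read-based tables, and protein-coding transcripts of the alignment-based tables; grey lines join the libraries. Fcgr2b and Pirb, at 412 and 374 TPM in replicate 1 of the gene tables, stand at 80.1 and 72.9 TPM when protein-coding transcripts alone are counted.

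By mean TPM the order was Fcgr2b, Pirb, Fcer1g, Sirpa, Trem2, Tyrobp, Fcgr3, Fcgr1, Fcgr4 and Siglec1. Of the 9 pairs of neighbours, 5 differed beyond their spread, meaning the same sign in both libraries and a mean log2 ratio above its SD. The order and the rule use the same values, and each SD rests on a single difference. The count therefore describes these libraries and is no test of the order. The pairs Pirb and Fcer1g, Fcer1g and Sirpa, Trem2 and Tyrobp, and Tyrobp and Fcgr3 changed places between the libraries. In the read-based tables Fcer1g came first at 325 and 254 TPM, ahead of Fcgr2b at 308 and 231 TPM. The plot of levels shows 4 genes at 170.5 TPM or more, and the other 6 at 123 TPM or less, in both kinds of whole-gene table. Within the protein-coding genes, Fcgr2b ranked 74 and 57, Pirb 88 and 91, Fcer1g 168 and 65, and Sirpa 140 and 87 in replicates 1 and 2. Siglec1 ranked 4134 and 3127. These ranks use whole-gene TPM. By mean TPM in protein-coding transcripts alone, the order began Fcer1g, Sirpa, Fcgr2b, Trem2 and Tyrobp, and Pirb came next. On that scale 4 of the 9 pairs of neighbours differed beyond their spread.

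Much of the RNA assigned to Fcgr2b and Pirb lay in transcripts not annotated as protein-coding. The 10 genes have 46 annotated transcripts, of which 28 are protein-coding, 10 are retained-intron transcripts (which keep sequence spliced out of others), 6 are processed transcripts (which have no annotated coding sequence) and 2 are targets of nonsense-mediated decay. The deposited tables list annotated transcripts, so a read from unspliced RNA is counted only where one of them holds its sequence. In nuclear RNA, unfinished transcripts and finished ones that keep an intron cannot be told apart by these tables. Protein-coding transcripts held 19.5% and 35.2% of Fcgr2b TPM (27.3% ± 11.1, SD, n = 2) and 19.5% and 15.4% of Pirb TPM (17.5% ± 2.90). Of the 10 genes, 2 had 50% or more of TPM outside protein-coding transcripts in both libraries, beside 27.9% of the 5368 protein-coding genes that had at least 5 TPM in each library. Short transcripts gain TPM for each count, so the share of counts was computed too, after the data were seen. Protein-coding transcripts held 29.96% and 52.4% of Fcgr2b counts, and 24.1% and 19.4% of Pirb counts. On that scale 1 gene of the 10, Pirb, had 50% or more outside protein-coding transcripts in both libraries, beside 16.7% of the 5368 genes.

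**Figure D2:**
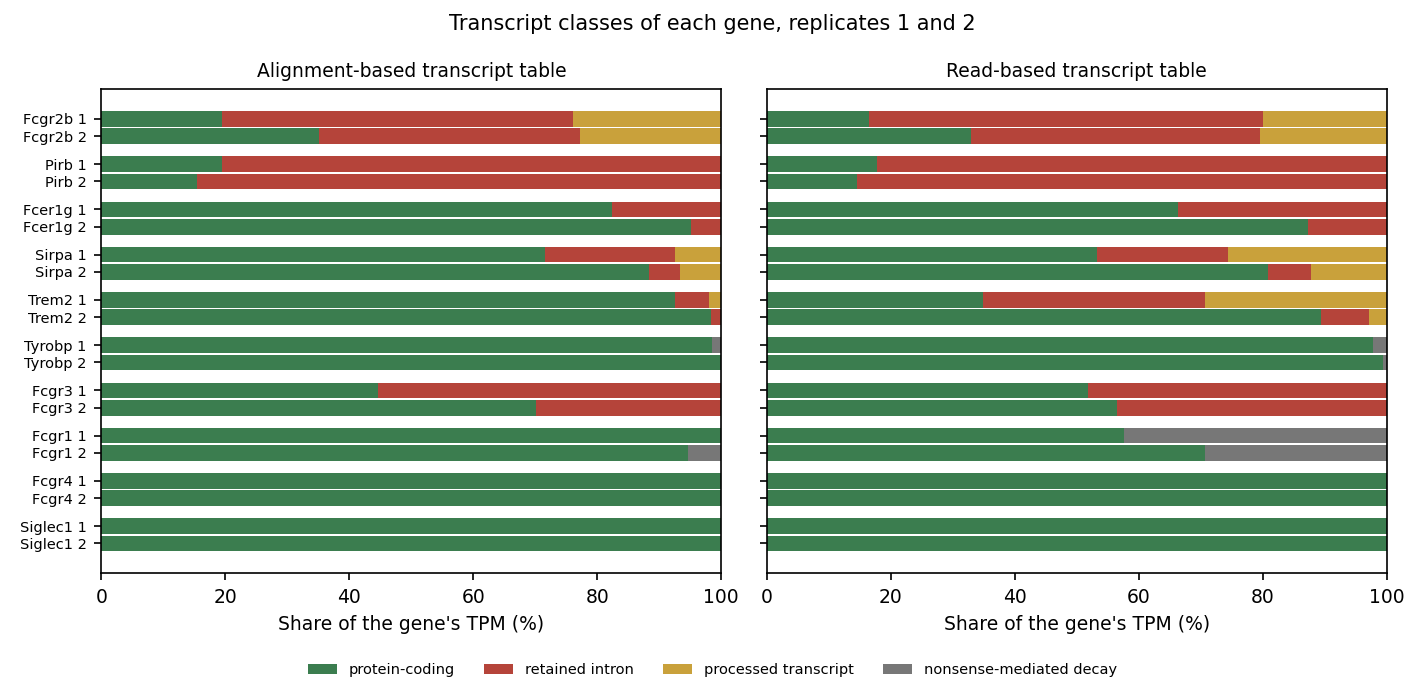
Share of each gene's TPM (horizontal axis, percent) in 4 annotated transcript classes, for replicates 1 and 2 of each gene, in the alignment-based (left) and read-based (right) tables. Pirb is mostly retained-intron transcripts in all 4 bars, at 80.5% and 84.6% on the left, while Fcgr4 and Siglec1 are protein-coding throughout.

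For Fcgr2b, the leading transcript was Fcgr2b-205, annotated as retained intron, with 157 and 98.5 TPM (38.0% and 29.4% of the gene). It ends inside an intron, 1369 bases past an exon that the protein-coding transcripts splice onward. Fcgr2b-206, a processed transcript near the 3′ end of the gene, held 98.8 and 76.4 TPM (24.0% and 22.8%). Fcgr2b-207, a retained-intron transcript of 462 bases, held 76.2 and 42.5 TPM, from 264 and 222 counts. Against 4484 and 4253 counts for Fcgr2b-205, this shows how a short transcript weighs more in TPM than in counts. The protein-coding Fcgr2b-201 held 33.3 and 64.8 TPM, and Fcgr2b-202 held 46.5 and 52.7 TPM. The order of Fcgr2b-201 and Fcgr2b-202 changed between the libraries.

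Pirb has 1 protein-coding transcript, Pirb-201, with 72.9 and 39.3 TPM. Pirb-202, a retained-intron transcript, led with 146 and 136 TPM (39.1% and 53.3% of the gene), followed by Pirb-205 with 101 and 50.7 TPM (27.1% and 19.9%). Pirb-204 held 41.9 and 22.0 TPM. Pirb-202, Pirb-204 and Pirb-205 all keep the same whole intron of 227 bases, printed below, which Pirb-201 removes. Pirb-205 also keeps an intron of 257 bases, and Pirb-203, Pirb-204 and Pirb-205 keep one of 154 bases.

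**Figure D3:**
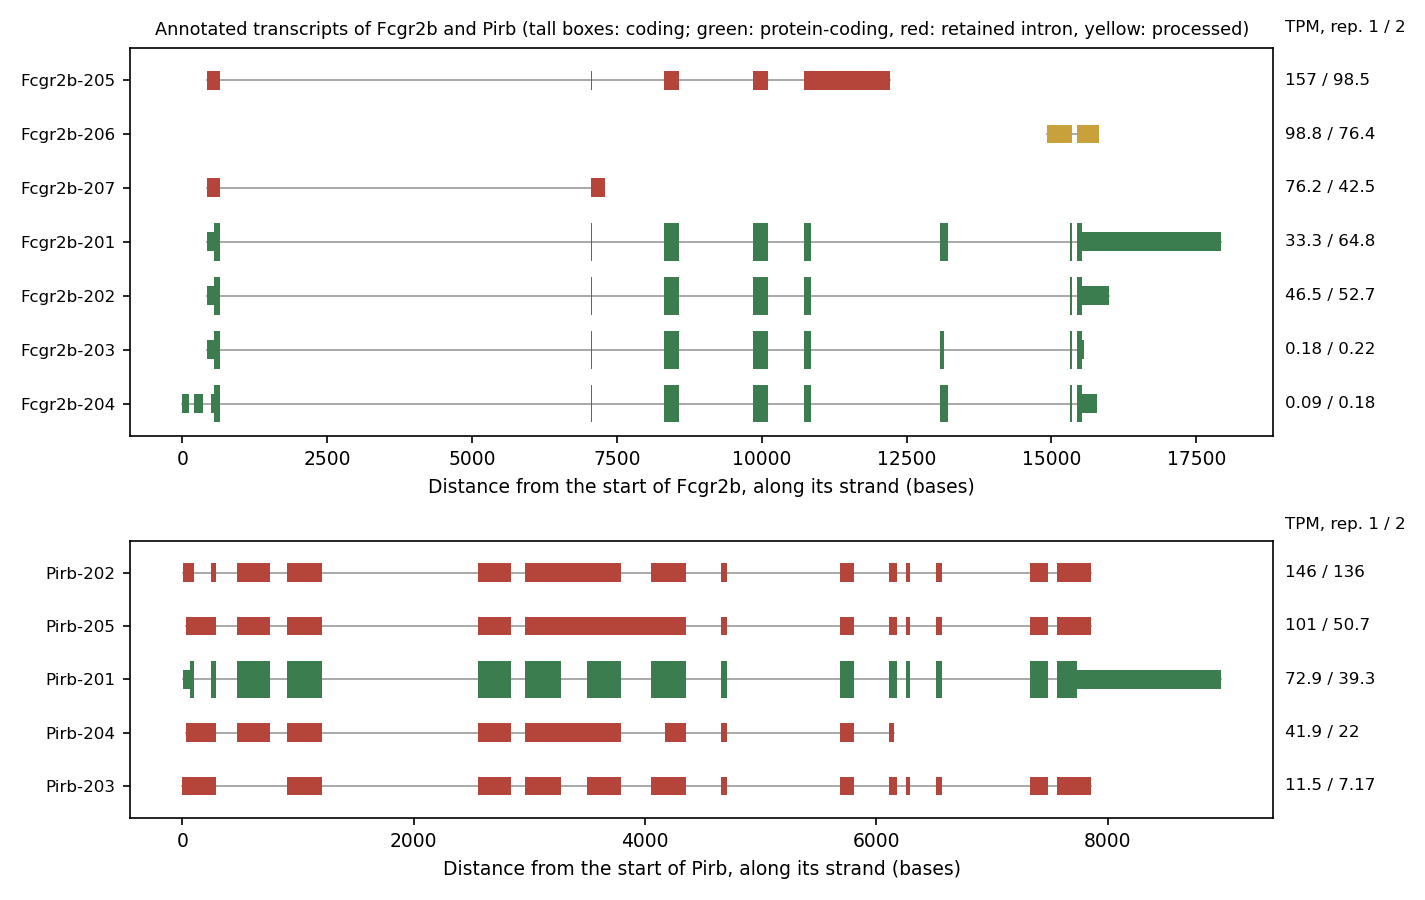
Exons of the annotated transcripts of Fcgr2b (top) and Pirb (bottom) by distance from the gene's start in bases, with TPM in replicates 1 and 2 at the right; tall boxes are coding, and colour gives the class. Fcgr2b-205 and Fcgr2b-207 end inside introns, and Pirb-202, Pirb-204 and Pirb-205 span the same intron as exon.

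The junctions that separate these transcripts from the spliced ones are shown because no protein-coding transcript of the annotation has an exon across them. A read across one may come from a finished transcript that keeps the intron or from unfinished RNA. They were read from the GENCODE M21 annotation and its transcripts (mm10), on the gene's strand, with 10 exon bases in capitals and 30 intron bases in lower case. The first set are donors, where the exon runs on into sequence that begins with the splice signal gt:

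Fcgr2b-205: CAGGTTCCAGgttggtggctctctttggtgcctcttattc
Fcgr2b-207: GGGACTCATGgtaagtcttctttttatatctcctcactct
Fcer1g-202: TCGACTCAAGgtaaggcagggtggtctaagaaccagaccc
Trem2-203: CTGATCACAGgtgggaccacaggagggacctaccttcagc
Pirb-202: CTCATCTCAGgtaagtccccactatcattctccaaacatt
Pirb-205: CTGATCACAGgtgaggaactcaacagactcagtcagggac
Pirb-203: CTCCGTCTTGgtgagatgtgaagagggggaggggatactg
Sirpa-212: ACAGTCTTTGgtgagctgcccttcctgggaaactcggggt

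The second set are acceptors, where kept intron sequence ends in ag and runs into the exon:

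Fcgr3-203: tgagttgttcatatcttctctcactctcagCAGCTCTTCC
Fcgr2b-206: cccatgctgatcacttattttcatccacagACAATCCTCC
Sirpa-212: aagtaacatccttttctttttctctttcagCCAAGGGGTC

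The intron that Fcgr2b-205 enters lies at chr1:170963466-170965701 in Fcgr2b-201. In Fcgr2b-202, which lacks the next exon, it lies at chr1:170961234-170965701. The further introns concerned lie at chr1:170968235-170969473 for Fcgr2b-207, chr1:171231032-171231176 for Fcer1g-202, chr17:48346596-48348456 for Trem2-203 and chr1:171057949-171058585 for Fcgr3-203. Those of Pirb lie at chr7:3716891-3717117 (Pirb-202), chr7:3716337-3716593 (Pirb-205) and chr7:3720139-3720292 (Pirb-203). Fcgr2b-206 keeps 397 bases before the acceptor at the 3′ end of the intron chr1:170961234-170963324 of Fcgr2b-201. Sirpa-212 keeps 518 bases of the intron chr2:129618571-129621202 and 47 bases of chr2:129627998-129629926. These are the 11 distinct junctions of that kind, in 11 transcripts of 6 genes, and in all of them the 8 donors begin with GT and the 3 acceptors end in AG. The kept introns thus carry the usual splice letters, which says nothing of how often they are spliced. The 227-base intron of Pirb is shown whole, with its first and last 2 bases in capitals, because the 3 transcripts that hold it made up 77.4% and 81.8% of Pirb TPM:

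Pirb intron: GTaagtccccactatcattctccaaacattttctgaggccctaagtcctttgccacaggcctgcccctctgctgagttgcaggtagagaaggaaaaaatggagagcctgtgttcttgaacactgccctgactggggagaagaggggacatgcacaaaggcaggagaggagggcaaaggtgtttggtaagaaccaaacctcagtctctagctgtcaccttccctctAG

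Fcgr2b-201 holds a coding exon of 141 bases, or 47 codons, that Fcgr2b-202 lacks (chr1:170963325-170963465). This exon encodes the insert in the cytoplasmic tail that separates the long and short forms of the receptor, and their coding sequences have 340 and 293 codons:

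Fcgr2b exon: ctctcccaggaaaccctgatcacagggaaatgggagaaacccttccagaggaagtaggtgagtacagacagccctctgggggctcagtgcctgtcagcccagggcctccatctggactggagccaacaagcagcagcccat

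Fcgr2b-201 is also 3544 bases long against 1462 for Fcgr2b-202, mostly through a longer 3′ end, so use of the exon and use of the 3′ end cannot be told apart in their TPM.

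In the alignment-based tables the other genes had smaller shares of TPM outside protein-coding transcripts, and Fcgr3 came next after Pirb and Fcgr2b. Fcgr3-203, a retained-intron transcript, held 55.4% of Fcgr3 TPM in replicate 1 and 29.9% in replicate 2, and the protein-coding Fcgr3-201 held 39.8% and 65.3%. These 2 transcripts changed places between the libraries in the alignment-based tables, and also in the read-based tables, at 48.1% and 43.6% for Fcgr3-203 and 45.6% and 51.1% for Fcgr3-201. Fcer1g-201, which encodes the gamma chain, held 71.9% and 90.9% of Fcer1g TPM, and the retained-intron Fcer1g-202 held 17.6% and 4.91%. The read-based tables gave Fcer1g-201 less, at 34.7% and 66.1%, and Fcer1g-203, also protein-coding, more, at 31.6% and 21.2% against 10.5% and 4.18%.

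Trem2-201 held 70.7% and 79.2% of Trem2 TPM, and the protein-coding Trem2-202 held 21.9% and 19.1%. Protein-coding transcripts made up 92.6% and 98.3% of Trem2 TPM in the alignment-based tables but 34.8% and 89.4% in the read-based ones. The retained-intron Trem2-203, at 4784 bases the longest Trem2 transcript, held 23.7% and 8.52% of Trem2 counts. Sirpa was divided between Sirpa-204 (22.6% and 37.2%), Sirpa-214 (23.0% and 26.2%), Sirpa-201 (14.4% and 17.8%) and the retained-intron Sirpa-212 (20.9% and 5.001%). Sirpa-212 rested on 345 and 118 counts, so retained-intron transcripts took 3.45% and 0.705% of Sirpa counts.

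The 4 genes without a retained-intron transcript in the annotation were Fcgr1, Fcgr4, Tyrobp and Siglec1, and their protein-coding shares of 94.6% or more are bounded by that annotation. Fcgr1-201 held all Fcgr1 TPM in replicate 1 and 94.6% in replicate 2, but the read-based tables gave 42.3% and 29.2% to Fcgr1-202, a target of nonsense-mediated decay. Fcgr4 has a single transcript. Tyrobp-202 held 98.5% and 100% of Tyrobp TPM, although its annotated coding length of 421 bases is not a multiple of 3, while Tyrobp-201, with 114 codons, was listed at 0. Siglec1-201 held 86.2% and 91.4% of Siglec1 TPM. The genes that overlap these loci had few reads: antisense Gm38204 at Fcgr2b had 2 and 2 counts, snRNA Gm26110 within Fcgr4 had 4 and 0, and Mir6546 at Fcgr3 had 0 in both, which allows 3 counts each. Whether reads were counted by strand is not given in the sources used here.

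Retained-intron shares were lower in replicate 2 than in replicate 1 for 5 of the 6 genes with such a transcript, the exception being Pirb. The same was seen in 72.3% of the 3788 protein-coding genes with such a transcript and at least 5 TPM in each library, and in shares of counts, again 5 of the 6, in 74.6%. The median retained-intron share of TPM was 38.2% and 17.4% over the 6 genes and 39.3% and 33.0% over the 3788. TPM in protein-coding transcripts, with no rescaling, was higher in replicate 2 for 9 of the 10 genes, again without Pirb, beside 20.3% of the 5368 genes. The log2 difference of protein-coding TPM + 1 was 1.501 for Trem2, 0.94 for Fcgr3, 0.55 for Fcgr2b and 0.53 for Fcer1g. For Pirb it was -0.87, with 72.9 TPM in replicate 1 and 39.3 TPM in replicate 2. The median log2 difference of protein-coding TPM was 0.54 over the 6 genes and -0.46 over the 3788, and that of retained-intron TPM was -0.64 and -0.76. With 1 library on each side these differences have no replicate check.

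Whole-gene levels also leaned toward replicate 2 once the libraries were put on one scale. The measure is the log2 ratio of TPM + 1 in replicate 2 over replicate 1, less the median of the 12655 genes whose mean was at least 1 TPM, which was -0.58. The pseudocount of 1 understates the ratio of low genes. All 10 genes lay above 0, as did 55.7% of 9556 protein-coding genes. Of the 10, 2 reached 1 on this scale, Trem2 at 2.00 and Tyrobp at 1.03, beside 5.46% of protein-coding genes, and 0 reached -1, beside 1.73%. Fcgr4 followed at 0.97, Fcer1g at 0.91, Fcgr3 at 0.89, Fcgr1 at 0.75, Siglec1 at 0.61, Sirpa at 0.51, Fcgr2b at 0.29 and Pirb at 0.03. The median of the 10 was 0.82, against 0.06 over the protein-coding genes. Pirb fell below 0 in 3 of 7 alternatives. The 10 macrophage markers were mostly higher in replicate 2 as well: their summed level was 1038 and 2261 TPM, 8 of the 10 were higher in replicate 2 on the same scale, and their median was 1.02. The 8 stromal markers went the other way, with the sums given above and a median of -3.39 over the 6 whose mean was at least 1 TPM. The part of these markers, of the mitochondrial share and of RNA input in the differences of the 10 genes was not tested, and a change in the cells present and a change in RNA per cell cannot be told apart in bulk RNA.

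**Figure D4:**
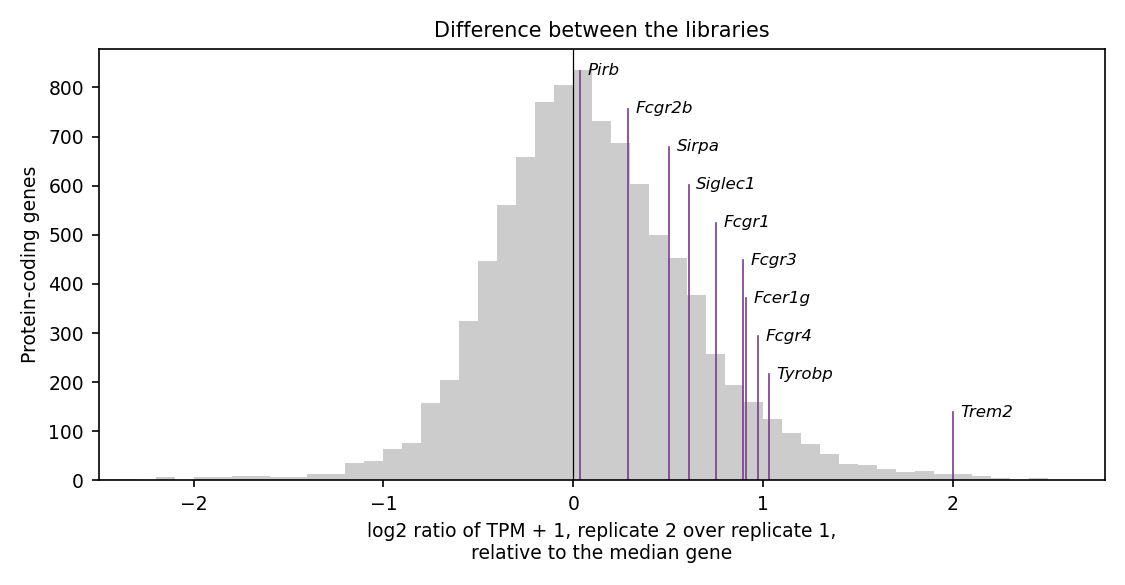
Histogram of the relative log2 ratio, replicate 2 over replicate 1, of 9556 protein-coding genes whose mean was at least 1 TPM (grey; the axis is limited for display), with the 10 genes as labelled lines of staggered height. All 10 lie at or to the right of 0, from Pirb at 0.03 to Trem2 at 2.00.

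Genes of the same pathways were taken as 11 lists that hold 116 entries, the 10 genes' own families included. Of these, 110 matched an annotated gene and 71 reached 1 TPM in both libraries, beside 40.4% of 22015 protein-coding genes. From each list the 3 highest genes by mean TPM and the lowest are named, with TPM in replicates 1 and 2. Counts, ranks and levels of the lists rest on the gene tables. Read-based means were far from these for some genes, such as 96.5 against 24.0 TPM for Src, 74.5 against 32.8 for Ptpn6 and 8.74 against 0.29 for Fcer2a. Among 13 further Fc receptors, 3 passed: Trim21, a cytosolic antibody receptor, at 153 and 115 TPM, Fcgrt, the neonatal Fc receptor, at 11.7 and 25.4 TPM, and Fcrls at 7.12 and 13.97 TPM. Pigr, the polymeric immunoglobulin receptor, was listed at 0. Of the 6 adaptors, Fcer1g and Tyrobp stood far above Hcst, the DAP10 adaptor, at 1.28 and 1.25 TPM, and Cd79a, a B cell receptor chain, stood at 0.52 and 0 TPM. Of 6 matched TREM family genes, Trem2 led, with Treml1 at 5.69 and 3.70 TPM and Treml2 at 3.40 and 2.13 TPM, and Trem3 was lowest at 0.18 and 0 TPM.

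Most listed genes of downstream signalling reached 1 TPM in both libraries, as did 40.4% of 22015 protein-coding genes. Of 16 kinases and partners downstream of ITAMs, 14 passed. They were led by the kinase Syk at 382 and 161 TPM, the exchange factor Vav3 at 309 and 140.1 TPM and the kinase Lyn at 167 and 98.0 TPM. Zap70, the T cell relative of Syk, stood at 0.38 and 0.08 TPM. Protein-coding transcripts held 56.7% and 67.0% of Syk TPM, 10.4% and 18.3% of Vav3 TPM, and 47.4% and 52.7% of Lyn TPM. All 11 genes in a list of phosphatases and partners passed. They were led by Ptprc at 599 and 368 TPM, Inppl1 at 64.3 and 24.5 TPM and Csk at 56.5 and 26.9 TPM. Dok3 was lowest at 1.67 and 1.14 TPM. Ptprc is a membrane phosphatase and Csk a kinase, and neither is a phosphatase that ITIMs recruit. Among those recruited, Ptpn6 stood at 46.2 and 19.4, Ptpn11 at 14.45 and 8.04, and Inpp5d at 10.4 and 11.6 TPM. Protein-coding transcripts held 16.1% and 26.0% of Ptprc TPM. These lists leaned the other way from the receptors between the libraries. On the relative log2 scale 14 of 15 kinase-list genes and 9 of 11 phosphatase-list genes were lower in replicate 2, with medians of -0.31 and -0.19. Over 9556 protein-coding genes, 55.7% were higher in replicate 2. The list genes that were higher were Lat2 at 0.39, Inpp5d at 0.73 and Dok3 at 0.26.

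Relatives of the inhibitory receptors included the most abundant genes of all the lists. Lilr4b and Lilrb4a, receptors of the LILR family, stood at 2123 and 1520 TPM and at 2023 and 1497 TPM, above Pirb, with Lilra5 listed at 0. The pair are close copies of each other, so the split of reads between them is uncertain. Protein-coding transcripts held 4.16% and 5.32% of Lilr4b TPM and 0% of Lilrb4a TPM in both libraries. These shares are bounded by the annotation and by how reads were divided among its transcripts, so 0% does not show that no coding RNA was made. Cd47, the ligand of Sirpa, stood at 94.0 and 76.4 TPM. Among Sirpa relatives Sirpb1a reached 0.33 and 0.32 TPM, and Sirpb1b was lowest, at 0.08 and 0.25 TPM. In the SIGLEC family Cd33 at 35.4 and 27.9 TPM stood above Siglec1, with Cd22 at 2.13 and 2.40 TPM and Siglec15 listed at 0. Of 11 CD300 and CD200 genes 8 passed, led by Cd300lf at 15.0 and 16.2 TPM, Cd200 at 18.1 and 10.5 TPM and Cd200r1 at 12.1 and 15.6 TPM, with Cd300lg lowest at 0 and 0.07 TPM. In a list of 20 other paired and C-type lectin receptors, which repeats Lilrb4a, 14 passed, with Clec4e at 115 and 114 TPM and Clec4d at 98.2 and 123 TPM, and Klrb1b was listed at 0. Of 7 genes in a list of ligands and sheddases of the Trem2 and Sirpa axes, 5 passed, and Sftpd was listed at 0. The list was led by Apoe, a Trem2 ligand, at 274 and 488 TPM. Thbs1, which is not a ligand of Trem2 or Sirpa themselves, stood at 39.8 and 67.0 TPM, and the protease gene Adam17 at 67.7 and 38.2 TPM.

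**Figure D5:**
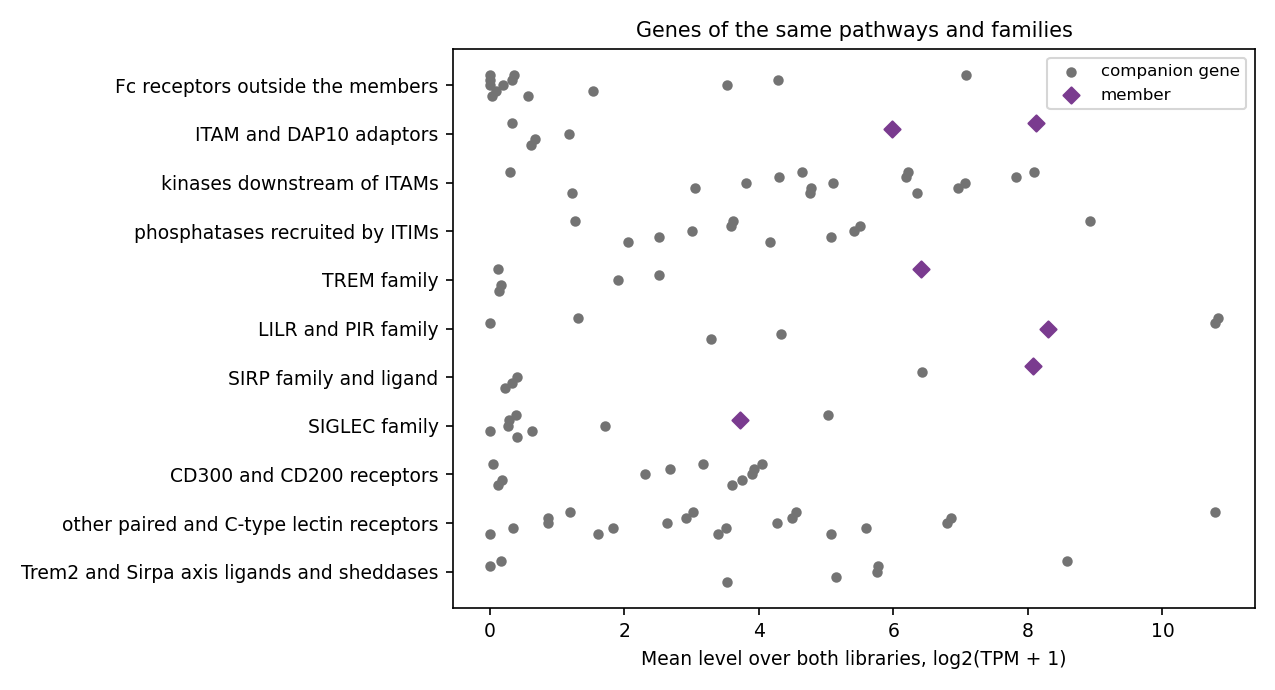
Mean level over both libraries, as log2(TPM + 1) on the horizontal axis, of each gene of 11 pathway and family lists (rows); grey points are companion genes and purple diamonds are members of the set of 10. Lilr4b and Lilrb4a (means of 1821 and 1760 TPM) lie above every one of the 10 genes, and Lilrb4a appears in 2 lists.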

How the data were processed

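Nucleoplasmic RNA of 2 libraries in 1 group was analysed, biological replicates 1 and 2. Build mm10 and annotation M21 are named per the labels' accompanying notes, while tools, versions and strand handling are not given in the sources. The authors deposited, per library, a gene and a transcript table from a transcriptome alignment, and a transcript table from the reads, summed here per gene ("read-based"). Expected counts are estimated counts, per the file headers. TPM is abundance per effective length on one common total, per the file headers. FPKM, deposited beside them, served as an alternative. The deposited percent per transcript and the posterior SD of counts (unit other, no fixed scale) are as in the file headers; shares were recomputed from TPM. Entries with no gene name took 1.41% and 0.245% of counts and were left out.

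A count of 0 allows up to 3 counts, or 0.213 and 0.141 TPM for 1 kb. No p-value was computed, since there is 1 group. Ratios used a pseudocount of 1 and were run on simulated counts with known folds. The simulation held no difference in mitochondrial or stromal RNA between libraries, and low genes were left out of it. It therefore cannot show how the ratios behave under the differences seen here. Alternatives were read-based tables, FPKM, other limits (5 TPM, 10 counts), edgeR 4.0.16 TMM and DESeq2 1.42.0 size factors on rounded expected counts (R 4.3.3), a pseudocount of 0.1, no filter, protein-coding reference genes, and each replicate left out. Mean levels were also computed with TPM rescaled to nuclear-encoded protein-coding genes. Protein-coding transcripts alone, as a scale for levels and ratios, and shares of counts were added after the data were seen. Python 3.11.15, pandas 2.3.3, numpy 2.4.6 and matplotlib 3.10.9 were used. The members and gene lists were chosen with earlier results of these data known. All 10 members are named, with transcripts at a mean share of 10% or more, the 3 highest and the lowest gene of each companion list, and the highest of each marker list. Further genes of these lists are named where they limit a statement. Symbols Trem6l, Pira1, Pira6, Pira11, Pira12 and Pira13 matched no gene name. Promoters were not analysed here.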

Additional observations from a re-analysis of the deposited data

How the results depend on the processing

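All 10 genes passed as detected under each of 6 alternatives, and 9 or 10 of them lay above 0 in the replicate ratio under each of 7. Their median relative log2 ratio, 0.82, became 0.90 with TMM, 0.88 with DESeq2 size factors, 0.54 in the read-based tables, 0.93 with a pseudocount of 0.1, 0.55 without a filter, 0.76 against the median of protein-coding genes and 0.83 in protein-coding transcripts; the cause was not tested. Without a filter the median of all genes shifted by -0.27, and in protein-coding transcripts by 0.23. The ratio of Pirb turned to -0.24, -0.0309 and -0.48 without a filter, against protein-coding genes and in protein-coding transcripts. The Fcgr2b share of Fc gamma receptor TPM was 76.0% in the read-based tables, 78.4% in FPKM and 56.6% in protein-coding transcripts, and 75.0% to 81.9% with either replicate left out. Mean levels depended on the total that TPM is scaled to. Rescaled to nuclear-encoded protein-coding genes, the mean of each of the 10 genes rose, to 1497 TPM from 373 for Fcgr2b and to 92.9 TPM from 22.5 for Fcgr1. No paired analysis was possible because there is 1 group. With 2 libraries the error of each value rests on 1 difference, and depth did not limit detection of the 10 genes, the fewest counts being 233 for Fcgr4.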
